A study of Mus musculus with 8 samples.

Results

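Rad21 strength was compared between lines with partial and lines with full-length switch regions, over regions that carried a Rad21 peak in every library. Peaks of all 8 deposited lists that overlapped by at least 1 bp were merged, which gave 64772 regions. Of these, 6747 held a peak in all 8 lists, and the 6691 on chromosomes 1 to 19 (10.3% of all merged regions) were compared. The other 56 lay on the sex chromosomes or on unplaced sequence. The distal end of chromosome 12, which holds the edited locus, was to be left out, but 0 of the 6747 regions lay there.

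Rad21 is the kleisin subunit that closes the cohesin ring. Cohesin extrudes chromatin loops and halts where CTCF is bound in the convergent orientation, so Rad21 ChIP-seq peaks mark loop anchors and other places where the ring is loaded or stalls. In activated B cells, loop extrusion brings the donor and acceptor switch regions of the immunoglobulin heavy chain locus (Igh) together, and CTCF sites at the far 3' end of the locus serve as a downstream anchor. Switch regions are long repetitive stretches before the constant region genes, at which AID initiates the breaks of class switch recombination.

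All libraries came from CH12F3, a mouse B lymphoma line that switches to IgA, given anti-CD40, TGF-β and IL4 for 72 hours. Every line was AID-/-, and every line name begins with Iγ3. The PS lines kept only partial Sγ3 and Sα around a deletion between both. PS_Ca (Iγ3-PS-Cα-AID-/-) was made in cells whose non-coding IgH allele is deleted from VH to the 3'BCEs, and PS_Ia (Iγ3-PS-Iα-AID-/-) in aInv cells. The FS lines kept both switch regions at full length. In FS_Ca (Iγ3-FS-Cα-AID-/-), made in the same parental cells as PS_Ca, the deletion ran from Cγ3 to Iα, and in FS_Ia (Iγ3-FS-Iα-AID-/-), made in aInv cells, it ran from Cγ3 to Cα. Each of the 4 lines had 2 libraries, so that 4 PS were compared with 4 FS libraries, with the Ca or Ia feature, called orientation here, as a covariate. The sources used here do not say whether the libraries of a line came from separate cultures or whether a line is 1 clone, so the p-values measure only the spread between these libraries.

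The strength of a region in a library was the highest fold enrichment over background of its peaks there, as the authors' peak caller gave it. It was taken as log2 and centred on the median of the 6691 regions in that library, so that 0 is a typical shared region and 1 is double that. This value is called relative strength. The uncentred median was 7.56 to 12.4 fold in the PS libraries and 9.28 to 11.4 fold in the FS libraries, which corresponds to summits of 11 to 21 fragments in PS and 11 to 18 fragments in FS. The expected background, the one measure of depth that could be recovered, under an assumed form of the fold, was 0.711 ± 0.129 fragments in PS, against 0.410 ± 0.225 fragments in FS (SD, n = 4 libraries each; two-sided exact permutation test, p = 0.0857, and 0.286 after adjustment over 5 library measures). PS libraries had an interquartile range of log2 fold of 0.69 ± 0.07, against 0.81 ± 0.13 in FS (adjusted p = 0.286, same exact test). FS_Ia replicate 2, with the lowest background of 0.223 fragments, had the widest range, 1.00. The lists held 11288 to 47461 peaks in PS and 13840 to 31550 peaks in FS. A member needs a peak in every list, so the shortest lists limit which regions were compared. The peak names fall into 3 sets by prefix: the replicate 1 libraries of PS, the replicate 2 libraries of PS, and all FS libraries. Set and switch length therefore cannot be told apart.

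No region passed the test for switch length. Of the 6691 regions, 0 (0%) had an adjusted p of 0.05 or less for PS minus FS in either direction (limma moderated test, Benjamini-Hochberg over all regions; lowest adjusted p = 0.851). At an unadjusted p under 0.05 there were 373 regions (5.57%), of which 197 (2.94%) were higher and 176 (2.63%) lower in PS. The robust and the abundance-trend versions of limma also called 0 regions, beside 377 and 380 at the unadjusted level.

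The differences between regions were small. Each library was centred on its own median over these regions, so a shift shared by all regions cannot be seen and a median difference near 0 is close to given; the quartiles were -0.18 and 0.19 on the log2 scale. The SD of the 6691 differences was 0.27, beside a median standard error of 0.25 for a single region. The lowest difference was -1.06 and the highest 1.05. A difference beyond 1 in size, a change of 2-fold, was reached by 5 regions, 2 of them higher and 3 lower in PS.

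The intervals bound what these libraries leave possible for the members, and not for regions that lacked a peak in any library. In 6114 regions (91.4%) the 95% interval of PS minus FS lay wholly between -1 and 1, so that a 2-fold difference lay outside it in both directions. In the other 577 regions (8.62%) the interval reached a 2-fold difference on at least one side, and the farthest bound of any region was 1.83. Intervals are per region and not adjusted. A p that missed the threshold therefore does not show that Rad21 strength was alike.

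**Figure D1:**
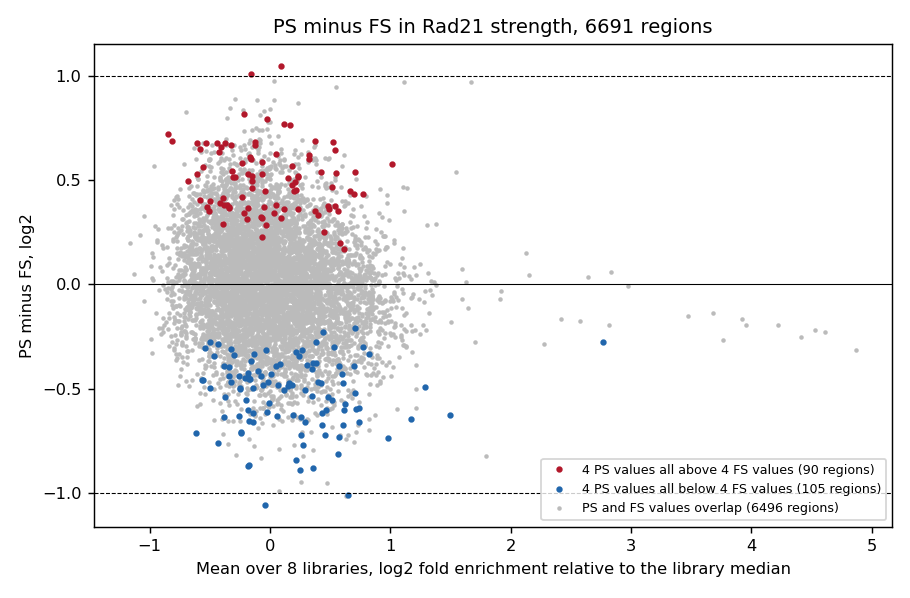
PS minus FS in log2 relative strength (vertical axis) against the mean relative strength over all 8 libraries (horizontal axis) for each of the 6691 regions. Coloured points are the 90 regions where all PS values lie above all FS values and the 105 where all lie below; dashed lines mark a 2-fold difference, which 5 regions pass.

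The length difference in Ia lines and that in Ca lines were nearly uncorrelated over the members. These 2 differences share no library. Each sets 2 against 2 libraries, and their SD over the regions was 0.44 in Ia and 0.32 in Ca lines. The median residual SD of a region was 0.34, so a correlation this low does not show that the length differences differ. Over the 6691 regions they correlated with Pearson's r = 0.03 (Spearman's rho = 0.03), given as a description, since regions of a library share its depth. The sign was the same in 3415 regions (51.0%). A test of whether the length difference itself differs between Ia and Ca lines gave 0 regions (0%; limma, lowest adjusted p = 0.354) and 347 at an unadjusted p under 0.05. With the replicate number as a block it called 2 regions, as it did without PS_Ia replicate 2 and without FS_Ia replicate 1.

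Contrasts that do not involve switch length gave counts of the same order. PS replicate 2 minus PS replicate 1 gave 0 called regions (0%; limma, lowest adjusted p = 0.0767) and 270 at an unadjusted p under 0.05. This 0 became 1 or 2 under 7 of 17 alternatives. Orientation, tested in the same model with the same number of libraries per side, gave 0 called and 289 at the unadjusted level, beside the 373 for switch length. Its differences had an SD of 0.26, beside 0.27 for switch length. Library pairs of equal and of unequal length had similar medians of correlation. Pearson's r over the regions had a median of 0.60 within PS (6 pairs, 0.51 to 0.69), 0.61 within FS (6 pairs, 0.51 to 0.65) and 0.61 between PS and FS (16 pairs, 0.32 to 0.74).

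A total of 195 regions (2.91%) had 4 PS and 4 FS values that did not overlap. PS lay above FS in 90 (1.35%) and below it in 105 (1.57%). Their differences had a median of 0.50 and -0.49, and were as small as 0.17 and -0.21. The 8 with the largest difference in each direction are described here as values, since none passed the test (adjusted p = 0.851 for each). No annotation of the mm9 build used by the lists was at hand, so the regions are given by position alone and no gene is assigned to them.

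Among regions higher in PS, the smallest p of all regions belonged to chr6:145288352-145292293. Its relative strength was 0.30, 0.58, 0.50 and 0.00 in PS_Ca replicates 1 and 2 and PS_Ia replicates 1 and 2, against -0.53, -0.34, -0.78 and -1.0 in the FS libraries in the same order. The summits stood at 17 to 26 fragments in PS and 6 to 14 fragments in FS. All 4 PS libraries held this region at or above the typical shared region and all 4 FS libraries below it. PS minus FS was 1.01 ± 0.24 (SE; limma, unadjusted p = 0.000224), with 1.14 in Ia and 0.88 in Ca lines.

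The largest difference upward was at chr11:11641686-11643734. The relative strengths were 0.18, 0.58, 1.20 and 0.49 in the PS libraries, against -0.12, 0.00, -0.13 and -1.49 in the FS libraries. The last value, from FS_Ia replicate 2, rests on a summit of 4 fragments. The difference was 1.05 ± 0.30 (limma, unadjusted p = 0.00136), and 0.65 without FS_Ia replicate 2.

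A close grouping within each length was seen at chr12:81209266-81211844 on chromosome 12. Values were 0.54, 0.50, 0.56 and 0.58 in the PS libraries, against -0.24, -0.16, -0.13 and -0.35 in the FS libraries. The means were 0.55 ± 0.03 in PS and -0.22 ± 0.10 in FS (SD, n = 4 each). The difference was 0.76 ± 0.23 (limma, unadjusted p = 0.00252), 0.81 in Ia and 0.72 in Ca lines.

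At chr11:106630160-106632291, PS values were 0.18, 0.50, 0.00 and 0.06, against FS values of -0.38, -0.55, -0.78 and -0.81. The difference was 0.82 in Ia and 0.81 in Ca lines. The other 4 regions were chr11:108309987-108312437 (0.79), chr5:54503170-54505739 (0.77), chr9:69796480-69797505 (0.72) and chr11:32080107-32084145 (0.69). Without FS_Ia replicate 2 the first of these fell to 0.50 and the chr5 region to 0.34. The chr9 region was among the weakest of all members, at percentile 0.63 of mean strength, with summits of 10 to 13 fragments in PS and 4 to 6 fragments in FS. Of the 8 regions 4 lay on chromosome 11, which holds 613 members (9.16% of all) and 13 of the 90 regions where PS lay above FS. With the library background as a covariate, chr11:11641686-11643734 had a difference of 0.51, chr11:108309987-108312437 of 0.18 and chr5:54503170-54505739 of 0.36. In the other regions, the lowest value in any setting tried was 0.88 at chr6:145288352-145292293, 0.72 at chr11:106630160-106632291 and 0.67 at chr12:81209266-81211844. It was 0.60 at chr9:69796480-69797505 and 0.57 at chr11:32080107-32084145. Background was 0.711 fragments in PS against 0.410 in FS, so this covariate cannot be fully separated from length.

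Among regions lower in PS, the largest difference was at chr16:11696698-11699090. Its relative strength was -0.46, -0.58, -0.77 and -0.46 in the PS libraries, against 0.39, 0.34, -0.13 and 1.36 in the FS libraries. The PS values lay close together and the FS values were spread widely. The difference was -1.06 ± 0.27 (limma, unadjusted p = 0.000543), and -0.73 without FS_Ia replicate 2, whose summit of 35 fragments was the tallest.

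At chr16:18106725-18109793 the values were -0.07, 0.22, -0.18 and 0.58 in PS, against 0.76, 1.04, 1.22 and 1.58 in FS. Every FS library held it well above the typical shared region. The difference was -1.01 ± 0.25 (limma, unadjusted p = 0.000332), -1.20 in Ia and -0.82 in Ca lines. At chr6:90464692-90466132 the PS values were -0.46, -0.58, -0.77 and -0.65, against 0.11, 0.14, 0.12 and 0.65 in FS, a difference of -0.87 ± 0.24.

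The other 5 were chr1:184483696-184485564 (-0.89), chr7:87724633-87727430 (-0.88), chr5:111697635-111699829 (-0.87), chr16:95561463-95565791 (-0.84) and chr2:26501770-26503376 (-0.82). In the chr7 region, PS_Ia replicate 1 stood at -0.92 and the other PS libraries at 0.18 to 0.22; without it the difference was -0.57. In the chr5 region, the difference was -0.58 without FS_Ia replicate 2. With the library background as a covariate, chr1:184483696-184485564 had a difference of -0.34, chr7:87724633-87727430 of -0.52 and chr5:111697635-111699829 of -0.55. In the other regions, the smallest difference in size in any setting tried was -0.73 at chr16:11696698-11699090, -0.75 at chr16:18106725-18109793 and -0.67 at chr6:90464692-90466132. It was -0.74 at chr16:95561463-95565791 and -0.65 at chr2:26501770-26503376. Of the 8 regions 3 lay on chromosome 16, which holds 259 of the 6691 members and 15 of the 105 regions where PS lay below FS.

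**Figure D2:**
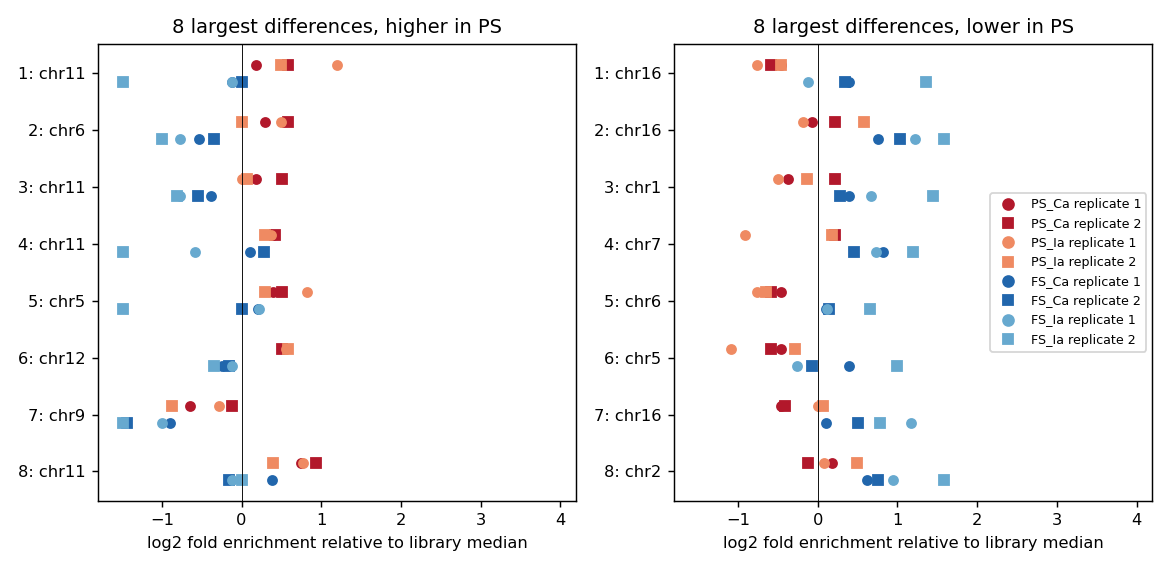
Relative strength (horizontal axis, log2) in each library for the 8 regions with the largest difference per direction, ordered by size from the top and named by chromosome; PS libraries are drawn above FS libraries in each row, with circles for replicate 1 and squares for replicate 2. FS_Ia replicate 2 is the lowest or highest of all 8 libraries in 7 of 8 regions on each side.

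These 16 regions were compared with all members in peaks, width, strength and spacing. A single peak per library was held by 1 of the 8 higher and 3 of the 8 lower regions, beside 38.5% of all members. In the rest, the value of at least 1 library is the highest of several peaks. Widths ran from 1026 to 4039 bp (median 2510.5 bp) on the higher side and from 1441 to 4329 bp (median 2294 bp) on the lower side, beside a median of 2026 bp for all members. Mean strength had a median percentile of 54.8 among the higher and 71.3 among the lower. The nearest other member was 18.0 to 160 kb away on the higher side and 2.88 to 145 kb on the lower side, beside a median of 58.8 kb for all members. FS_Ia replicate 2 was the lowest or highest library in 14 of the 16, and it is also the library with the widest range of values. Within PS the sets differed by at most 0.57 at any of the 16 (limma, lowest unadjusted p = 0.138). These regions were chosen for groups that do not overlap, which favours agreement within PS. The p therefore says nothing of the part of the sets.

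No difference in the highest Rad21 peak of a member was detectable beside the edited locus. The members nearest to the edit lie in the Igh 3' flank, downstream of Cα, the stretch that holds its enhancers and its 3' CTCF sites. Over all lists, the member nearer to Cα merged 20 peaks in 4783 bp and the farther one 16 peaks in 3301 bp. A value is the highest of a library's peaks, so libraries may be compared at different summits. Differences at the lower peaks were not tested. At chr12:114457842-114462624, nearer to Cα, the fold enrichment was 15.2, 7.56, 11.7 and 18.8 in PS_Ca and PS_Ia, against 13.6, 16.8, 9.28 and 14.7 in FS_Ca and FS_Ia, 2 replicates each. Relative strength was 0.28 ± 0.29 in PS and 0.38 ± 0.27 in FS libraries (SD, n = 4 each). The difference was -0.10 ± 0.25 (SE; 95% interval -0.60 to 0.41; limma, adjusted p = 0.983), 0.03 without PS_Ca replicate 2 and -0.46 with the library background as a covariate.

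At chr12:114453661-114456961, farther from Cα, the folds were 10.2, 5.04, 11.1 and 10.2 in PS, against 5.74, 8.09, 6.19 and 13.1 in FS. Relative strength was -0.25 ± 0.27 in PS and -0.38 ± 0.40 in FS libraries. The difference was 0.13 ± 0.25 (95% interval -0.37 to 0.63; limma, adjusted p = 0.971), and -0.02 without FS_Ia replicate 1. The groups overlapped in both regions, and a 2-fold difference lay outside both intervals. In Ia lines the differences were 0.23 nearer to and 0.13 farther from Cα, and in Ca lines -0.43 and 0.13 (limma test of Ia against Ca, unadjusted p = 0.186 and 0.997).

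**Figure D3:**
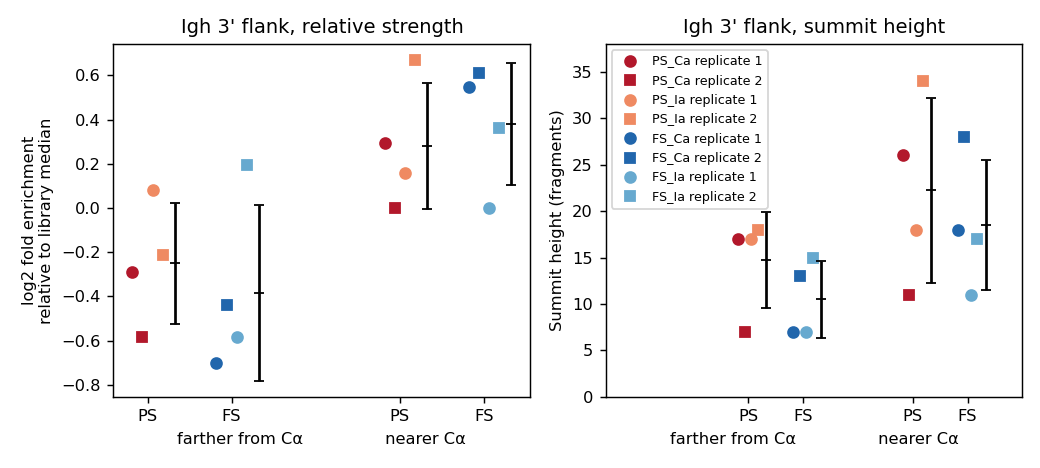
The Igh 3' flank regions, farther from and nearer to Cα, in each library: relative strength (left, log2) and summit height in fragments (right); black bars are the mean ± SD of 4 libraries. PS and FS values overlap in each panel, at 7 to 18 and 7 to 15 fragments farther from Cα and at 11 to 34 and 11 to 28 fragments nearer to it.

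The tallest 5 members had values below 0, a direction that turned with the scaling, and none passed the test. The tallest was chr2:98506279-98507612, at 237 to 325 fold in PS and 289 to 394 fold in FS libraries, with summits of 375 to 526 fragments in PS and 424 to 508 fragments in FS. Its difference was -0.31 ± 0.25 (limma, adjusted p = 0.902). The next were chr9:2999890-3008888 (-0.23), chr9:3009126-3038420 (-0.22), chr9:35112702-35113296 (-0.25) and chr2:98502272-98503261 (-0.19). Of these, chr9:3009126-3038420 was 29295 bp wide, beside a median of 2026 bp for all members. No control was known, so whether these heights come from Rad21 was not tested. With quantile normalization 4 of the 5 differences were above 0, and with each library scaled to the same interquartile range all 5 were, at 0.46 to 0.50.

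The median difference changed sign along the range of strength. In 5 equal classes of mean strength, the median PS minus FS was 0.05 in the weakest class, 0.03, 0.02 and -0.02 in the classes between, and -0.06 in the strongest. The share of regions with a positive difference was 58.8% in the weakest and 40.4% in the strongest class. The median relative strength of the strongest class was 0.58 to 0.67 in PS and 0.58 to 0.84 in FS libraries, the highest being FS_Ia replicate 2. Regions at an unadjusted p under 0.05 made up 4.48% to 6.28% of each class, beside 5.57% of all. The part of the narrower spread of values in the PS libraries in this slope was not tested. In 5 classes of width the median difference was between -0.01 and 0.01.

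No stretch of chromosome passed the test either. The mean relative strength of windows of 10 Mb with at least 10 members was tested in the same model. Of 204 windows, 0 (0%) passed (limma, lowest adjusted p = 0.540), and 15 (7.35%) had an unadjusted p under 0.05. Differences ran from -0.29 to 0.26, with a median standard error of 0.07. In 202 windows the 95% interval lay between -0.5 and 0.5. The 3 windows with the smallest p on the lower side were chr16:1-10000000 (-0.29 ± 0.08), chr16:30000001-40000000 (-0.27 ± 0.09) and chr4:150000001-160000000 (-0.21 ± 0.07). On the higher side they were chr11:10000001-20000000 (0.26 ± 0.09), chr14:100000001-110000000 (0.22 ± 0.08) and chr8:30000001-40000000 (0.17 ± 0.07). PS and FS values did not overlap in 2 windows (0.98%).

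By chromosome, the median of the members in each library was compared by an exact two-sided permutation of the libraries. Orientation was not a covariate in this test. None of the 19 chromosomes reached an unadjusted p under 0.05 (adjusted p = 1 for each; 70 assignments allow no p below 0.0286). The lowest p values on the higher side were those of chromosome 3 (0.09, exact permutation p = 0.143), chromosome 12 (0.09, p = 0.257) and chromosome 10 (0.04, p = 0.429). On the lower side they were chromosome 16 (-0.20, exact permutation p = 0.257), chromosome 15 (-0.05, p = 0.429) and chromosome 9 (-0.03, p = 0.571). On chromosome 12, which carries Igh, 95 of 259 members (36.7%) were lower in PS, beside 49.7% of all members and 38.4% of those on chromosome 3. The chromosome 12 median was -0.07 and 0.00 in PS_Ca and -0.09 and 0.18 in PS_Ia. In FS_Ca it was 0.00 and -0.08, and in FS_Ia -0.13 and -0.11. Only PS_Ia replicate 2 lay above 0, and leaving out 1 library gave a difference of 0.03 to 0.12.

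**Figure D4:**
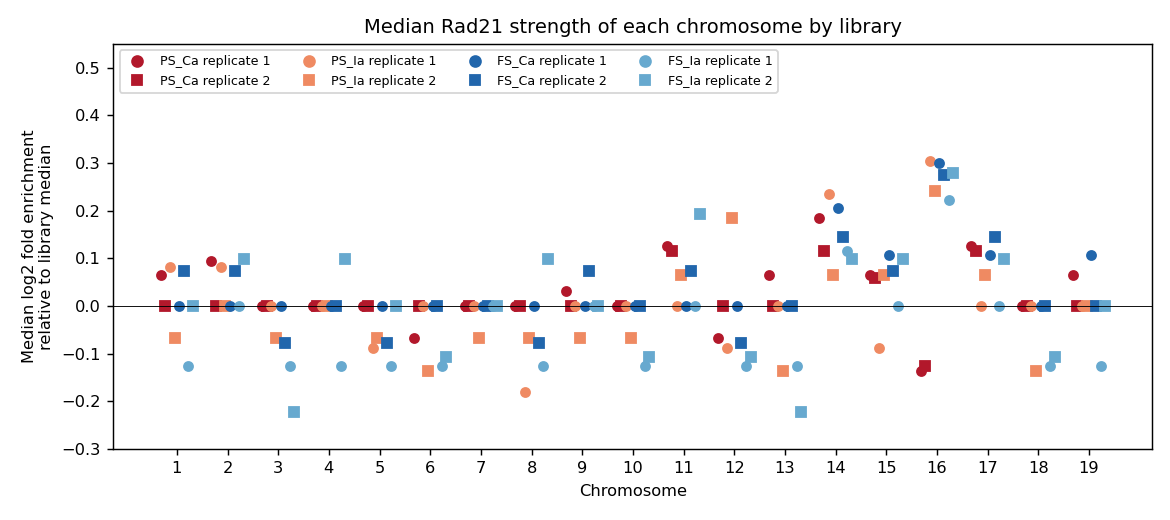
Median relative strength (vertical axis, log2) of the members on each chromosome (horizontal axis) in each of the 8 libraries. On chromosome 16 both PS_Ca libraries lie at -0.14 and -0.13, and the other 6 libraries between 0.22 and 0.30.

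The values of chromosome 16 stood lower in both PS_Ca libraries than in any other library, without passing a test. The median of its 259 members was -0.14 and -0.13 in PS_Ca and 0.30 and 0.24 in PS_Ia, against 0.30 and 0.28 in FS_Ca and 0.22 and 0.28 in FS_Ia. The other lines thus held chromosome 16 above the typical shared region, and PS_Ca held it below. Ia minus Ca was 0.44 among the PS replicate 1 and 0.37 among the PS replicate 2 libraries, which belong to different prefix sets. The difference between orientations in the length difference was 0.44 (exact permutation of length within orientation, p = 0.111; 36 assignments allow no p below 0.0556). PS minus FS of this median was -0.13 without PS_Ca replicate 1 and -0.07 over regions with a peak in at least 7 lists.

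Member by member, 187 of the 259 (72.2%) were lower in PS, and the median difference was -0.20, with -0.01 in Ia and -0.37 in Ca lines. At an unadjusted p under 0.05 there were 32 (12.4%, beside 5.57% of all members), of which 31 were lower in PS. All 4 PS values lay below all 4 FS values in 15 (5.79%, beside 1.57%), and above them in 0. Chromosome 2 also held 15 of the 105 such regions (3.07% of its members). Chromosome 16 was picked for its values, and its members share the shift of each library. The member counts therefore describe the same shift as the median and are not separate evidence. Of the 7 windows of chromosome 16, both PS_Ca libraries lay below the other 6 in 5, and this was the case in none of the other windows. The difference between Ia and Ca in these windows had an unadjusted p under 0.05 in 4 of 7, but the lowest adjusted p over all windows was 0.327 (limma).

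**Figure D5:**
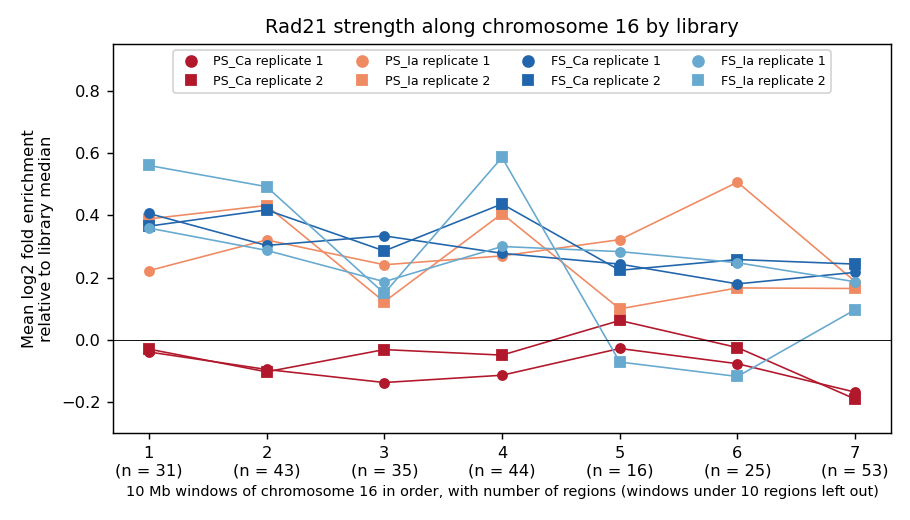
Mean relative strength (vertical axis, log2) of the members in 7 windows of 10 Mb along chromosome 16 (horizontal axis, in order) in each library. Both PS_Ca libraries run between -0.19 and 0.06 along the chromosome.

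The only setting that called regions for switch length used the PS replicate 1 libraries without replicate 2; both regions were picked out here after their values were seen. Set against all FS libraries, those 2 libraries gave 2 regions lower in PS, at chr4:45849707-45850180 (-1.99; limma, adjusted p = 0.00884) and chr4:45853891-45854642 (-2.06; adjusted p = 0.00884), which lie next to each other. In the first, PS_Ca and PS_Ia replicate 1 had -1.0 and -1.09 and the replicate 2 libraries 1.00 and 1.06, against 0.21 to 1.85 in FS. In the second, replicate 1 had -0.76 and -1.09 and replicate 2 had 1.27 and 1.06, against 0.32 to 1.81 in FS. The replicate 2 libraries of the same genotypes thus fell within the range of the FS libraries. PS replicate 2 minus PS replicate 1 was 2.08 and 2.09 (limma, adjusted p = 0.0767 for both). Over all 8 libraries the differences were -0.95 and -1.01 (limma, adjusted p = 0.851 for both).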

How the data were processed

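Rad21 ChIP-seq peak lists of 8 libraries were used. Per the submitters' processing notes, Bowtie2 2.4.4, SAMtools 1.15.1, deepTools 3.5.1 and MACS2 2.2.7.1 were used with mm9; no source used here gives the settings or controls. Peaks were called per library, one deposited list each. Column 7 of the deposited lists is a fold enrichment, a linear ratio of pileup to background, columns 8 and 9 are -log10 of the p and q value as the authors' caller wrote them, and column 5 is its integer score.

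The lists hold no read counts, so no count model was used and depth is unknown beyond the peaks. Folds fall on an evenly spaced grid. Summit fragments and the expected background were estimated from it by assuming that a fold is (fragments + 1) over (background + 1); the caller's settings are not known, so both rest on this assumption.

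Python 3.11.15 (pandas 2.3.3, scipy 1.17.1) merged the peaks, and limma 3.58.1 in R 4.3.3 fitted length and orientation to centred log2 folds. Regions were called at a Benjamini-Hochberg adjusted p of 0.05 or less. Chromosome medians were compared by exact two-sided permutation without orientation, and windows by limma with it. The code was tested on simulated data.

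Named regions were the 8 largest differences per direction among those with non-overlapping groups, the Igh 3' flank regions and the 5 tallest; named windows and chromosomes were the 3 with the smallest p per direction. Members, lists and rules were chosen with earlier results of these data known. Normalizations, scales, filters, left-out libraries and a replicate block were tried. No mm9 genome or annotation was used, so no gene or sequence is given.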

Additional observations from a re-analysis of the deposited data

Results flagged for a closer look

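In groups of 4 libraries, a library was singled out where its gap to the nearest other, divided by the range of the group, exceeded Dixon's 95% critical value. This marked 10 of 76 groups, and chance marks about 1 in 20 groups. Most of these groups were chosen for their PS and FS values and some medians are tied, so that rate does not apply to them and the number is not evidence of an excess. FS_Ia replicate 2 was marked 4 times: at chr11:11641686-11643734 (-1.49) and chr5:54503170-54505739 (-1.49), where it was low, at chr6:90464692-90466132 (0.65), where it was high, and in its interquartile range of log2 fold (1.00). PS_Ia replicate 1 was low at chr7:87724633-87727430 (-0.92) and in the chromosome 15 median (-0.087). PS_Ia replicate 2 was low in the window chr14:100000001-110000000 (-0.058) and in the medians of chromosome 3 (-0.067) and chromosome 10 (-0.067). FS_Ca replicate 2 was high in the chromosome 9 median (0.074). Chromosome medians move in coarse steps, and several libraries share a median of 0.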

How the results depend on the processing

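The count of regions called for switch length was 0 under every alternative tried except PS replicate 1 against all FS, which called 2, both lower in PS. Leaving out each library in turn gave 0 to 0. None of the 16 regions with the largest differences was called under any alternative that gave a value; they were chosen for groups that do not overlap, so their direction says nothing of stability. Igh flank values changed sign and size: at chr12:114457842-114462624 the difference was -0.46 with background as covariate and -0.24 with summits plus and minus 100 bp, and at chr12:114453661-114456961 it was 0.042 with those summits. Leaving out 1 library gave -0.023 to 0.29 at chr12:114453661-114456961 and -0.27 to 0.027 at chr12:114457842-114462624, and PS replicate 2 against FS gave -0.015 at chr12:114453661-114456961. The tallest regions turned positive with quantile normalization (chr2:98506279-98507612 0.00569, chr9:3009126-3038420 0.039, chr9:35112702-35113296 0.029, chr2:98502272-98503261 0.037), with cyclic loess (chr2:98502272-98503261 0.00684) and with background as covariate (chr9:2999890-3008888 0.031, chr9:3009126-3038420 0.13, chr9:35112702-35113296 0.23, chr2:98502272-98503261 0.33). With an equal interquartile range, chosen after seeing the data, they were 0.46, 0.49, 0.49, 0.46 and 0.50 for chr2:98506279-98507612, chr9:2999890-3008888, chr9:3009126-3038420, chr9:35112702-35113296 and chr2:98502272-98503261. The chromosome 9 median was 0.073 with a peak in at least 7 lists and 0.00811 with summits plus and minus 100 bp. Set contrasts within PS called 2 regions with quantile normalization, with a peak in at least 7 lists, with the abundance trend and with the equal interquartile range, and 0 to 2 without single FS libraries. The length difference between orientations called 0 to 2 without single libraries. Regions at an unadjusted p under 0.05 numbered 185 (2.76%) with PS replicate 2 against FS, 192 (2.87%) with background as covariate and 232 (3.47%) without PS_Ia replicate 1; the cause was not tested. Settings that test other numbers of regions gave 202 of 3345 (6.04%) in the higher part by mean, 240 of 4034 (5.95%) at a -log10 q of at least 5, and 557 of 9724 (5.73%) with a peak in at least 7 lists. Chromosome medians were not recomputed where only the model changed.

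Replicate numbers did not pair the samples throughout, and the main model used no pairing. Over 6 pairs of lines, the correlation of same-numbered deviations ran from -0.216 (PS_Ca with FS_Ca) to 0.404 (PS_Ia with FS_Ia). With a replicate block, 0 regions were called for switch length, 446 had an unadjusted p under 0.05, and 2 were called for the difference between orientations.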
